A study of Mus musculus with 159 samples.

Results

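Expression of 9 B cell and plasma cell genes (Cd79a, Cd79b, Ms4a1, Blk, Cd22, Pax5, Cr2, Pou2af1 and Mzb1) was examined across 159 mouse mammary tumors. The genes were chosen by symbol, as 9 of 18954 genes named on the array, and each was measured by 1 probe set. The tumors developed spontaneously in untreated female offspring of FVB/NJ mice carrying the MMTV-PyMT transgene and Diversity Outbred (DO) mice of generation 7, and were harvested at about 100 days of age. The MMTV promoter drives the polyoma middle T oncogene in mammary epithelium, all tumors carry the transgene, and each DO parent contributed a different mixture of the founder genomes. Total RNA of 1 tumor per animal was hybridised to Affymetrix mouse ST arrays, and the labels place all tumors in a single group without a normal tissue control. As asked for by the rule behind this gene set, the tumors were further divided by the mean of the standardized Cd79a, Cd79b and Ms4a1 values. The 9 tumors with a mean above the preset threshold are called B cell-rich here and the remaining 150 the other tumors. Since measured values of B cell genes made this division, differences between these groups are described and not tested.

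B lymphocytes recognise antigen through a surface immunoglobulin whose signal is passed on by the Cd79a and Cd79b chains, and the transcription factor Pax5 keeps them committed to their lineage. On activation some become plasma cells, which lose Pax5 and most surface markers, express Prdm1, Xbp1 and Irf4, and secrete antibody joined in polymers by the J chain. Pou2af1, a coactivator that works with octamer-binding factors, is used by both stages, and Mzb1 is a chaperone of the endoplasmic reticulum that helps to assemble and secrete antibody. B cells in tissue often gather with T cells in follicle-like aggregates that stromal chemokines such as Cxcl13 attract.

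Promoters of 5 members were taken from RefSeq (GRCm38.p6, 250 bases before to 50 after the start listed for each gene). They were searched on both strands for letters that B cell factors are known to bind. Cd79b, Ms4a1, Blk and Mzb1 were not searched. The octamer ATGCAAAT, the element of the Pou2af1 partners, was found in 0 of the 5 promoters and in 1.74% of all 32851 promoters in the table. The palindrome CCCNNGGG, the core bound by Ebf factors, was found in 1 of 5 (Cd22) and in 13.7% of all promoters. The Ets core AGGAA, which PU.1 and Spib can bind, was found in 5 of 5 and in 66.7% of all promoters, and no matches of different motifs overlapped. The promoters of Cd79a, Cd22 and Pou2af1 are printed because all 3 genes were high together in the B cell-rich tumors and Pou2af1 varied apart from the others elsewhere. Capitals mark the matches of AGGAA in either orientation and, in Cd22, also the CCCNNGGG match.
Cd79a (chr7:24897247-24897546, plus strand): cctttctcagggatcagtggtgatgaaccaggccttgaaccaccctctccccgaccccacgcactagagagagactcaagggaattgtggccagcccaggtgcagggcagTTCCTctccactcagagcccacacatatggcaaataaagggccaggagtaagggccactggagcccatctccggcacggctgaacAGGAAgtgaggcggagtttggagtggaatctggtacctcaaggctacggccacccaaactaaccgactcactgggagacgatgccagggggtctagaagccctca
Cd22 (chr7:30878979-30879278, minus strand): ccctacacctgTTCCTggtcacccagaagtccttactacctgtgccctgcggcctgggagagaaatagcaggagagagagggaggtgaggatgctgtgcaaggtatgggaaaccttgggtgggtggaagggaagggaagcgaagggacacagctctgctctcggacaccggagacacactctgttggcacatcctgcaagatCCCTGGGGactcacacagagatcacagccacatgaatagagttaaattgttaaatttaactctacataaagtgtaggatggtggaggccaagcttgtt
Pou2af1 (chr9:51213440-51213739, plus strand): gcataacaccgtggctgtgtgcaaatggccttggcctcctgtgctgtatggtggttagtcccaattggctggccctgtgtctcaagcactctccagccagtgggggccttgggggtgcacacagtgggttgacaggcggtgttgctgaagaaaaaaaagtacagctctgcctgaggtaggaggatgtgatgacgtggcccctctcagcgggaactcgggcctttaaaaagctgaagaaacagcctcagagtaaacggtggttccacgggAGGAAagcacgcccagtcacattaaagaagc
In Cd79a the AGGAA matches lie at positions -140 to -136 and -55 to -51 from the start, while in Pou2af1 the single match lies 20 to 24 bases after it. The CCCNNGGG match of Cd22 lies at positions -48 to -41 from its listed start. The gene span of Cd22, 30865404 to 30880342 on chromosome 7, holds the whole printed window. The match is thus inside the gene and not next to the outer end of the span. These are matches of letters and not measured sites.

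The arrays had medians between 6.81 and 7.18 on the log2 scale before each was shifted to the median array. A background level of 5.76 was taken as the 95th percentile of the means of 1220 olfactory, vomeronasal and taste receptor genes, which served as a proxy for unexpressed genes. Of all named genes, 24.8% had a mean at or below this level. On 6 arrays the correlation with the others was low, the lowest array having a median of 0.891 where the usual one had 0.975, and 0 of these 6 were B cell-rich. Probes of separate genes differ in how they bind, so levels were compared between tumors and not between genes. The common background level does not allow for such differences between probes. In bulk tumor RNA, fewer B cells and less RNA per B cell cannot be told apart.

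The 9 B cell-rich tumors stood apart from all others. Their scores lay between 2.66 (animal 14897) and 5.43 (animal 14823), and the highest score among the other tumors was 0.122 (animal 14794). The tumor just inside the threshold had log2 values of 8.54 for Cd79a, 9.44 for Cd79b and 7.24 for Ms4a1. The tumor just outside had 5.13, 6.78 and 5.05. The same 9 tumors were found with thresholds of 1 and 0.5, with the values as deposited and after quantile normalization. By blocks of 100 animal numbers, taken as a stand-in for the order of collection, they were 2 of 27, 1 of 26, 4 of 41, 2 of 28, 0 of 32 and 0 of 5 tumors.

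Of the antigen receptor chains, Cd79a ranged between 8.54 and 11.36 with a median of 9.66 in the 9 B cell-rich tumors, against 4.53 to 5.35 with a median of 4.85 in the 150 other tumors. Cd79b ranged between 9.44 and 12.10 (median 10.46) in the B cell-rich tumors and between 6.04 and 7.15 (median 6.40) in the others. Neither gene had overlapping values, and Cd79a lay below the background level in all 150 other tumors while Cd79b lay above it in all 150. Surface proteins of mature B cells behaved alike. Ms4a1, which encodes CD20, had values of 7.24 to 10.64 (median 8.70) in the B cell-rich tumors and 4.30 to 5.05 (median 4.53) in the others. Cr2, the complement receptor CD21 of B cells and follicular dendritic cells, had 6.90 to 10.28 (median 8.37) in the B cell-rich tumors and 4.77 to 5.40 (median 4.94) in the others. Both were below background in each of the 150 other tumors. Cd22, an inhibitory receptor that binds sialic acid, had 7.21 to 10.04 (median 8.05) in the B cell-rich tumors and 5.71 to 6.55 (median 6.06) in the others, again without overlap.

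The other members act inside the cell. Pax5 had 7.27 to 9.64 (median 8.08) in the B cell-rich tumors and 5.75 to 6.51 (median 6.13) in the others, without overlap. Blk, a Src family kinase of B cells, had 6.47 to 8.64 (median 7.07) in the B cell-rich tumors and 5.45 to 6.59 (median 5.87) in the others, and 7 of the 9 exceeded every other tumor. Mzb1 had 6.26 to 7.95 (median 6.66) in the B cell-rich tumors and 5.44 to 6.42 (median 5.93) in the others, with 7 of 9 above all others. Its difference of medians, 0.73, was the smallest of the 9 members, where Cd79a had the largest with 4.81. Pou2af1 had 8.30 to 10.73 (median 9.08) in the B cell-rich tumors and 5.76 to 10.56 (median 6.53) in the others, and only 1 of the 9 exceeded every other tumor because 3 other tumors were high. Over all named genes, the median difference was -0.01, and in 31 of 18954 (0.164%) every B cell-rich tumor was above every other. Of the 9 members this held for 6, of which Cd79a, Cd79b and Ms4a1 had made the division.

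**Figure D1:**
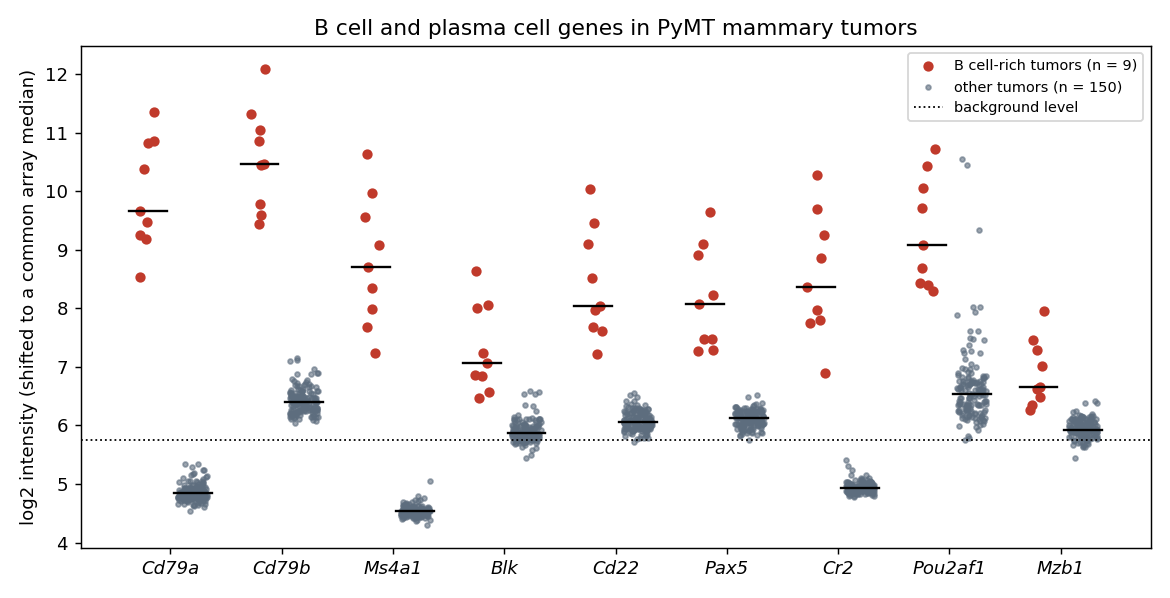
Log2 intensity of the 9 member genes by tumor, with the 9 B cell-rich tumors (red, left of each pair) and the 150 other tumors (grey, right), medians as bars and the background level of 5.76 as a dotted line. The groups do not overlap for Cd79a, Cd79b, Ms4a1, Cd22, Pax5 and Cr2, and 3 of the other tumors reach the B cell-rich range for Pou2af1.

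Within the 9 B cell-rich tumors the members formed a gradient. Animal 14823 had the highest value of all 9 members (Cd79a 11.36, Ms4a1 10.64, Pax5 9.64 and Mzb1 7.95), and animal 14721 the second highest (10.86, 9.97, 9.10 and 7.47). Animal 14897 had the lowest value of 8 members, all except Cd22. Over these 9 tumors the 36 pairs of members had Pearson r between 0.93 and 0.99 with a median of 0.97, and Spearman's rho between 0.90 and 1, which is a description since the tumors were chosen on 3 of the genes. The steepness differed between members. Per unit of Cd79a on the log2 scale, Ms4a1 was higher by 1.15, Cr2 by 1.12, Pou2af1 by 0.97, Cd22 by 0.93, Pax5 by 0.88, Cd79b by 0.86, Blk by 0.77 and Mzb1 by 0.58. On a log scale such slopes are lower for probe sets close to background, so they do not rank the genes by abundance. Jchain, which encodes the J chain of secreted antibody, did not keep to this order, with r of 0.32 against Cd79a over the 9 tumors. It was highest in animal 14721 (9.74) and animal 14591 (8.70), and stood at 6.25 in animal 14823, where all members peaked.

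**Figure D2:**
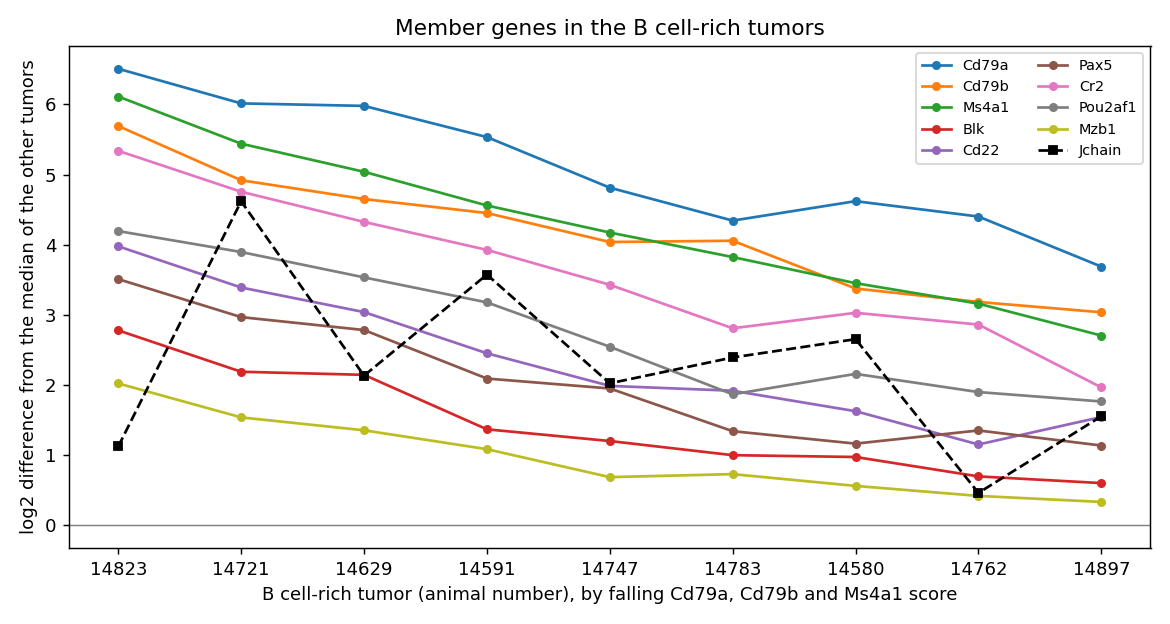
Difference on the log2 scale between each of the 9 B cell-rich tumors and the median of the 150 other tumors, for the 9 members (coloured lines) and Jchain (dashed), with tumors ordered by falling score from animal 14823 to animal 14897. The member lines fall together, and Jchain is high in animals 14721 and 14591 and low in animals 14823 and 14762.

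Further B cell genes were high in the same tumors. The mean level of 21 measured genes of a B cell list was 7.25 to 9.41 (median 7.92) in the B cell-rich tumors and 5.999 to 6.60 (median 6.27) in the others, and 6 of the 21 genes had no overlap. Fcer2a, the low-affinity IgE receptor CD23, had medians of 8.74 in the B cell-rich tumors and 5.29 in the others. In the B cell-rich tumors the IgM receptor gene Fcmr had a median of 9.24, the scaffold gene Bank1 of 8.63 and the Ets factor gene Spib of 8.60, against 6.02, 5.26 and 5.58 for these genes in the others. Not all B cell genes separated the tumors. Ebf1, a B lineage factor that fat cells also express, had medians of 9.60 in the B cell-rich tumors and 7.78 in the others with overlap, and Blnk, an adaptor also found in other cells, had 8.95 in the B cell-rich tumors and 8.63 in the others. Of germinal center genes, Rgs13 reached 7.76 in 1 B cell-rich tumor, with a median of 4.79 over the 9 and 4.45 over the other 150, and Bcl6 had 9.21 in the B cell-rich tumors and 9.19 in the others.

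Genes of other cell types moved with the B cell genes. The mean of 12 T cell genes was 6.37 to 9.60 (median 7.40) in the B cell-rich tumors and 5.74 to 6.46 (median 6.03) in the others, and 7 of the 9 exceeded every other tumor. The T cell receptor chain Cd3e had 7.89 to 11.81 (median 9.39) in the B cell-rich tumors and 6.49 to 8.16 (median 7.20) in the others. Within the 9 tumors its r with Cd79a was 0.91. The mean of 8 lymphoid stroma genes was 7.16 to 8.73 (median 7.92) in the B cell-rich tumors and 5.66 to 7.23 (median 6.35) in the others. Among these, Cxcl13 had 10.77 to 12.07 (median 11.22) in the B cell-rich tumors and 5.42 to 10.78 (median 7.64) in the others, and the homing chemokine Ccl19 had medians of 9.91 in the B cell-rich tumors and 6.50 in the others. Glycam1, a ligand of lymph node vessels that is also a milk protein, had 9.49 to 12.56 in the B cell-rich tumors and 5.19 to 12.95 in the others. The mean of 9 adipocyte genes had a median of 9.50 in the B cell-rich tumors and 7.14 in the others, with all B cell-rich tumors inside the range of the others. The mean of 10 luminal epithelium genes was 9.85 to 10.53 (median 10.22) in the B cell-rich tumors and 8.36 to 10.77 (median 10.43) in the others. The part of T cells, stroma and fat in the result was not tested.

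The mean of the plasma cell list did not separate the tumors, although Jchain and the antibody genes had higher medians in the B cell-rich tumors. Its mean over 15 genes was 8.06 to 8.64 (median 8.26) in the B cell-rich tumors and 7.48 to 8.51 (median 7.91) in the others, 1 of the 9 exceeded every other tumor, and the median gene differed by 0.01. Tnfrsf17, the survival receptor BCMA of plasma cells, had medians of 5.45 in the B cell-rich tumors and 5.46 in the others, below background. In the B cell-rich tumors Prdm1 had a median of 7.15 and Xbp1 of 12.30, against 7.22 and 12.35 for these genes in the others, and other secretory and immune cells also express both. Sdc1, the surface proteoglycan syndecan of plasma cells and epithelium, had 8.36 in the B cell-rich tumors and 8.54 in the others. Medians higher by over 0.5 in the B cell-rich tumors were found for Irf4, which activated lymphocytes also express, with 7.10 in the B cell-rich tumors and 5.45 in the others, Slamf7 with 7.22 in the B cell-rich tumors and 5.59 in the others, Tent5c with 8.29 in the B cell-rich tumors and 7.78 in the others, and Jchain with 5.58 to 9.74 (median 7.25) in the B cell-rich tumors and 4.70 to 8.74 (median 5.12) in the others. Ighm, the constant region of IgM, had 6.35 to 8.33 (median 6.94) in the B cell-rich tumors and 5.62 to 6.35 (median 5.87) in the others. Igha, the constant region of IgA, named after its values were seen, had 6.68 to 10.67 (median 8.82) in the B cell-rich tumors and 5.10 to 8.04 (median 5.39) in the others. Igkv6-20 and Ighg3, also named after their values were seen, had medians of 6.87 and 5.76 in the B cell-rich tumors. In the others their medians were 5.29 and 4.82.

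The spread of each gene was then set against the typical probe set, as its variance divided by that of the median probe set (one-sided chi-square test, p under 0.05 beyond a ratio of 1.19). Across all 159 tumors all 9 members passed, where 43.9% of all named genes did. Cd79a had an SD of 1.21 and a ratio of 30.4, Ms4a1 of 1.02 and 21.9, and Cd79b of 0.9995 and 20.8. Pou2af1 had a ratio of 17.6, Cr2 of 15.9, Cd22 of 7.51, Pax5 of 5.89, Blk of 3.47 and Mzb1 of 1.85. These ratios rested on few tumors, since a robust variance, which the extreme tumors hardly enter, left 2 of the 9 members past the test, Cd79b and Pou2af1.

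Without the 9 B cell-rich tumors, 1 of the 6 members that had not made the division passed, where 43.8% of all named genes did. This was Pou2af1, with a ratio of 9.37 (SD 0.66), and the other 5 lay between 0.18 for Cr2 and 0.70 for Blk. Cd79a, Cd79b and Ms4a1 had ratios of 0.44, 0.97 and 0.16, which are a description, since tumors high in these 3 genes were the ones left out. The SD of Cd79a over the 150 tumors was 0.14, that of Cd79b 0.21, of Ms4a1 0.09, of Cr2 0.09, of Mzb1 0.16 and of Blk 0.18, set against 0.22 for the typical probe set. Among the 6 members that had not made the division, leaving out these tumors took away 98.9% of the variance of Cr2, 93.3% of that of Pax5, 93.04% of that of Cd22, 80.3% of that of Blk, 72.2% of that of Mzb1 and 47.8% of that of Pou2af1. Of the 21 other B cell genes 9 passed in the 150 tumors, a share close to the 43.8% of all named genes. Among them were Ebf1 with a ratio of 11.6 and Stap1 with 3.29. Of the 15 plasma cell genes 11 passed, with Jchain at 9.41 and Irf4 at 3.33.

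**Figure D3:**
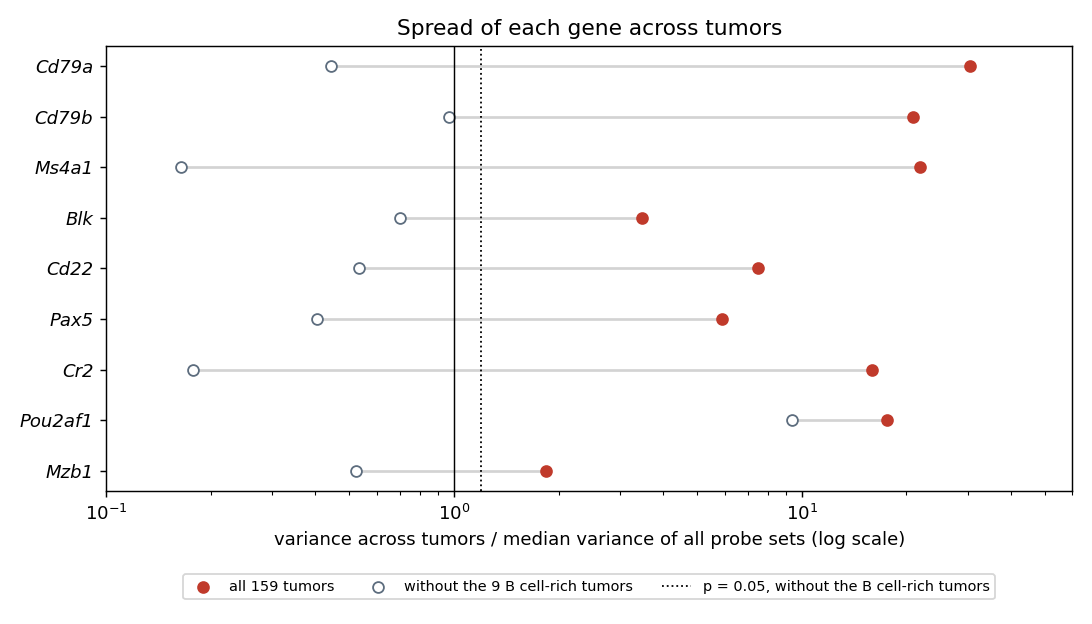
Variance of each member across tumors divided by that of the median probe set, on a log axis, for all 159 tumors (filled) and for the 150 tumors left without the B cell-rich ones (open), with the ratio of 1 (line) and the ratio of 1.198 at which p reaches 0.05 in the 150 tumors (dotted). All filled points lie right of the dotted line, and of the open points that of Pou2af1 alone does.

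Whether the members still went together was examined over the 150 other tumors. The 36 pairs had r between -0.02 (Ms4a1 and Mzb1) and 0.54 (Blk and Pax5), with a median of 0.24. The median was 0.42 with the values as deposited, before arrays were shifted to a common level, and 0.11 after the mean of the background receptor genes was regressed out. The receptor mean itself, the proxy for array background, had r of 0.69 with Blk, 0.62 with Cr2, 0.51 with Cd79a and 0.44 with Ms4a1, and of 0.20 with Cd22 and 0.08 with Pou2af1. A pair that held up was Blk and Pax5, with r of 0.54 and rho of 0.51 (permutation p 1e-05 for each, the smallest that 100000 permutations can give), 0.56 without the 2 tumors farthest from the median, 0.21 to 0.55 within the blocks of animal numbers and 0.43 after the receptor mean was regressed out.

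Each named gene was also fitted on Cd79a over the 150 tumors with limma, and slopes are given in log2 units per SD of Cd79a. Of the 8 other members 7 had a positive slope past an adjusted p of 0.05, where 25.9% of all genes did. Blk had a slope of 0.08 ± 0.01 (SE, adjusted p = 8.58e-07), Mzb1 of 0.06 ± 0.01 (adjusted p = 2.25e-05), Cr2 of 0.04 ± 0.01 (adjusted p = 1.05e-05) and Cd79b of 0.06 ± 0.02 (adjusted p = 0.00327). Positive slopes on Cd79a were also called for 10 of 12 T cell genes, 10 of 21 other B cell genes and 3 of 5 plasmacytoid dendritic cell genes. They were called for 2 of 6 NK cell, 2 of 8 lymphoid stroma, 0 of 10 macrophage and 0 of 9 adipocyte genes. Of the 10 luminal epithelium genes 5 had a negative slope past the threshold, where 4794 of 18953 genes did. The part of these cells was not tested. The slopes went along with the receptor mean, the proxy for array background. Of the 1220 receptor genes 768 also had a positive slope on Cd79a past the threshold, and with the receptor mean as a covariate, or after quantile normalization, 0 of 8 members passed in limma (2 and 3 of 8 at an unadjusted p under 0.05). The 10 genes most like Cd79a by r included Spib (r = 0.54), a B cell factor, beside the olfactory receptor genes Olfr123, Olfr796 and Olfr1012 and the genes Epha8 (0.55), Htr1a, Ly6g5c, Gdf9, Il17a and Pzp. Of the 100 most like Cd79a 24 were receptor genes and 59 lay at or below background, and for Cr2, led by Dydc2 (0.63), Pebp4, Olfr1012, Ankrd55, Mir187, St8sia3, Tgm7, Galr1, Lrp1b and Fscn3, these counts were 17 and 68.

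Cd79b, the B cell member above background in all 150 tumors, had other companions. The 10 genes most like it were Cd28 (r = 0.59), Ltb (0.54), Rhoh (0.54), Ikzf3 (0.54), Ighm (0.53), Ptprcap (0.53), Treml2, Snx20, Tbx21 and Sash3, of which most are known from lymphocytes, and which were named after the values were seen. In a fit on Cd79b, added after the values were seen, 7 of 8 members had a positive slope past the threshold, where 29.6% of all genes did, and with the receptor mean as a covariate 3 of 8 did. These 3 were Cd22 (adjusted p = 0.00381), Pax5 (adjusted p = 0.0173) and Blk (adjusted p = 0.0256). With the block of animal numbers as a covariate 6 of 8 passed, Mzb1 (adjusted p = 0.0877) being lost. Ighm had a slope of 0.08 ± 0.01 on Cd79b (SE, adjusted p = 3.16e-09) and kept an adjusted p of 5.32e-08 with the covariate. Genes of many other cells also had positive slopes on Cd79b past the threshold. These were 12 of 12 T cell genes (median slope 0.08), 8 of 10 macrophage genes (0.13), 8 of 9 adipocyte genes (0.26), 5 of 6 NK cell genes, 5 of 5 plasmacytoid dendritic cell genes, 6 of 8 lymphoid stroma genes and 499 of 1220 receptor genes. Of the 10 luminal epithelium genes 5 had a negative slope past the threshold, where 5959 of 18953 genes did. The part of these cells in the slopes was not tested.

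Mzb1, the member nearest to plasma cells, was set against Cd79a in the same tumors. In a fit on Mzb1 alone 6 of 8 members had a positive slope past the threshold, where 24.1% of all genes did. Pax5 had a slope of 0.06 ± 0.01 (SE, adjusted p = 2.83e-06) and Blk of 0.07 ± 0.01 (adjusted p = 3.65e-06), while Ms4a1 had -0.0016 ± 0.0074 (adjusted p = 0.881) and Pou2af1 0.08 ± 0.05 (adjusted p = 0.237). With the receptor mean as a covariate 4 of 8 passed (Pax5, Cr2, Blk and Cd79a), and after quantile normalization 0 of 8 (3 at an unadjusted p under 0.05). With the block of animal numbers as a covariate 4 of 8 passed, Cd79b (adjusted p = 0.129) and Cd22 (adjusted p = 0.12) being lost. Positive slopes were also called for 9 of 12 T cell genes (median slope 0.05) and 523 of 1220 receptor genes, and the part of T cells was not tested. Of the 15 plasma cell genes 1 had a positive slope on Mzb1 past the threshold and 3 a negative one, where 4886 of 18953 genes had a negative one. The positive gene was Tnfrsf17, with 0.06 ± 0.01 (SE, adjusted p = 9.47e-07) and an adjusted p of 0.000587 with the receptor covariate, although its median lay below background. On Cd79a the counts were the same, 1 positive and 3 negative of 15. Tnfrsf17 was again the positive gene (adjusted p = 8.63e-05, and 0.338 with the receptor covariate). It also had positive slopes in limma fits on Blk (adjusted p = 5e-19) and Pax5 (9.48e-16), but not past the threshold on Ms4a1 (0.0807) or Pou2af1 (0.956). The 10 genes most like Mzb1 were Klhl35 (r = 0.62), Hs6st3 (0.60), Lhb (0.59), Tas2r138, Fgf3, Slc39a5, Hrh2, Mei1, Cryba2 and Pcnx2, none of them on the B cell or plasma cell lists. When Cd79a and Mzb1 entered the same model, 0 of 7 members had slopes on these anchors that differed past the threshold, where 0.670% of all genes went more with Mzb1 and 0.575% more with Cd79a. At an unadjusted p under 0.05 there were 2 of 7. These were Ms4a1, at -0.04 ± 0.01 (SE, adjusted p = 0.0986), and Pax5, at 0.05 ± 0.02 (adjusted p = 0.183), a negative value standing for a higher slope on Cd79a. Of the genes that went more with Mzb1 the first were Nrsn1, Olfr1148, Snord47, Mroh5, Gm10190, Rpl19, Mir598, Rab2a, Olfr432 and Bhmt2, and of those that went more with Cd79a Hamp2, Olfr1271, Eras, Gm11487, Olfr1029, Olfr1058, Defb11, Lgi1, Wdr90 and Olfr1300-ps1. No plasma cell gene was among them, and 0 of 15 plasma cell genes were called in either direction. Of the 21 other B cell genes 1 was called, Spib, which went more with Cd79a (-0.07 ± 0.02, SE, adjusted p = 0.0244). Cd79a lay below background in all 150 tumors. The SDs of Cd79a and Mzb1 were 0.14 and 0.16, against 0.22 for the typical probe set. With anchors of so little spread, this contrast cannot decide which genes go with B cell or with plasma cell signal.

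Pou2af1 was high in some of the other tumors without the B cell genes. The highest values were 10.56 in animal 14553, 10.46 in animal 14633 and 9.34 in animal 14601, which lie inside the range of the B cell-rich tumors. Cd79a was 4.91, 5.01 and 4.94 in these 3 tumors, Ms4a1 4.52, 4.42 and 4.44, and Jchain 4.99, 5.11 and 4.74, all below background. The next highest were 8.03 in animal 14926 and 8.02 in animal 14864, which was on 1 of the 6 arrays of low correlation. In a fit on Pou2af1, added after the values were seen, 0 of 8 members passed in either direction (1 of 8, Cd79a, at an unadjusted p under 0.05), where 6.44% of all genes had a positive slope past the threshold. The nearest member was Cd79a, with a slope of 0.03 ± 0.01 (SE, adjusted p = 0.0559), r of 0.22 and rho of 0.26, and it passed with the block of animal numbers as a covariate (adjusted p = 0.0441). Without the 3 high tumors 4 of 8 members passed, namely Cd79a (adjusted p = 0.0227), Cd79b (0.0221), Blk (0.0329) and Cd22 (0.0275), with slopes of 0.03 to 0.05.

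The genes most like Pou2af1 over the 150 tumors were Otor (r = 0.82), Gjc3 (0.79), Gpr37l1 (0.78), Cmtm5 (0.77), Fabp7 (0.75), Pla2g5 (0.74), Gria4 (0.73), Cdh20 (0.72), Htr2a (0.72) and Slc2a6 (0.72), named after their values were seen. Several of these are known from glia, where Gjc3 encodes a connexin and Fabp7 a fatty acid binding protein, while Otor is known from cartilage and the inner ear. Otor had a slope of 0.70 ± 0.04 on Pou2af1 (SE, adjusted p = 3.16e-34) and Gjc3 of 0.64 ± 0.04 (adjusted p = 4.59e-30). Otor was 11.33 in animal 14553, 9.89 in animal 14633 and 6.87 in animal 14601, against a median of 5.15 over the 150 other tumors. The relation was not that of these tumors alone. Without them r was 0.65 for Otor, 0.62 for Gjc3 and 0.64 for Gpr37l1 over the tumors left, with rho of 0.43, 0.40 and 0.39, and Pou2af1 had an SD of 0.44. Within the blocks of animal numbers r with Otor was 0.61 to 0.92. In the B cell-rich tumors, where Pou2af1 was high with the B cell genes, Otor had 4.96 to 5.95 (median 5.11) and Gjc3 4.83 to 5.36 (median 4.97), close to the medians of the other tumors. The epithelial genes Cdh1 and Epcam were 10.40 and 10.41 in animal 14553, against medians of 10.75 and 10.74 over the other tumors, and the glial and mammary tumor factor Sox10 was 10.65 there, against a median of 10.60 over the other tumors. Of the 10 luminal epithelium genes 6 had a negative slope on Pou2af1 past the threshold (median slope -0.08), where 1085 of 18953 genes did, and the part of epithelial content in the result was not tested.

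**Figure D4:**
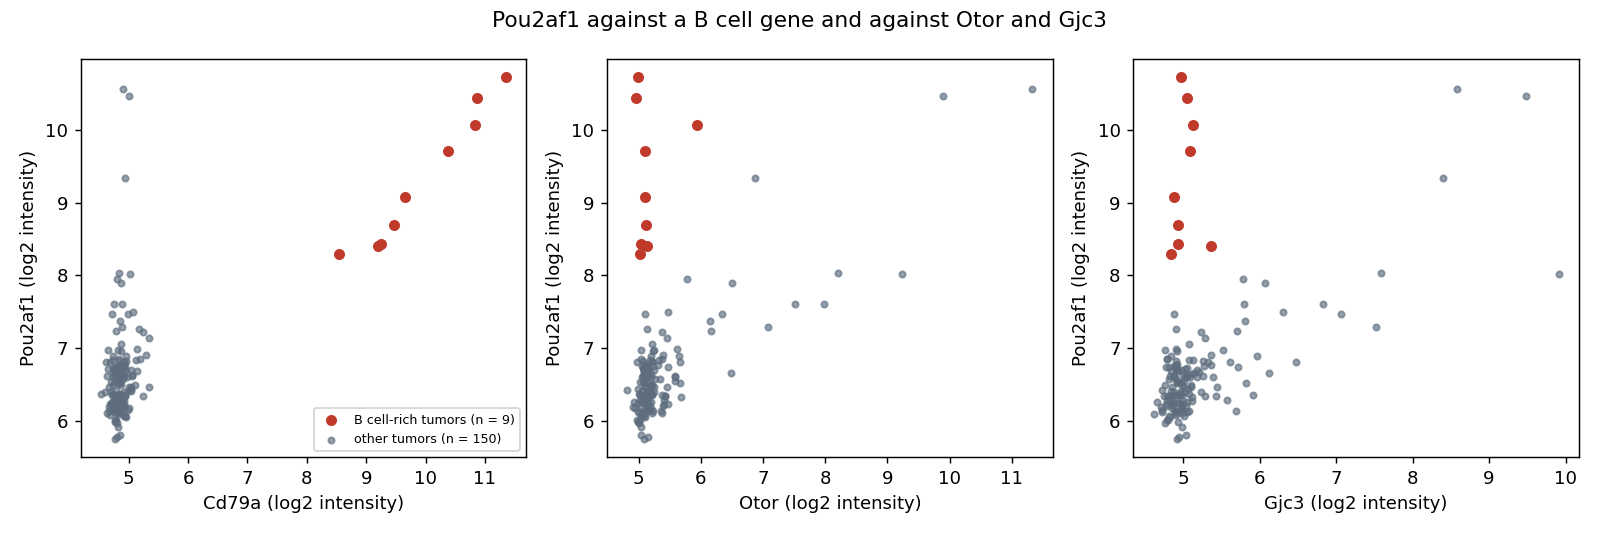
Log2 intensity of Pou2af1 against Cd79a, Otor and Gjc3, with the 9 B cell-rich tumors in red and the 150 other tumors in grey. Pou2af1 climbs with Cd79a in the B cell-rich tumors while Otor and Gjc3 stay low there, and 3 other tumors with Pou2af1 between 9.34 and 10.56 have Cd79a near 5 and raised Gjc3.

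An antibody signal was also present outside the B cell-rich tumors. Over the 150 other tumors Jchain had r of 0.77 and rho of 0.705 with Ighm, r of 0.71 with Igha and r of 0.65 with the light chain segment Igkv6-20 (permutation p 1e-05 each, the smallest possible). Within the blocks of animal numbers r with Ighm was 0.62 to 0.89, and it was 0.79 with the receptor mean regressed out. Jchain reached 8.74 in animal 14606, where Igha was 8.04 and Igkv6-20 7.38, then 8.31 in animal 14888 and 7.82 in animal 14595. Cd79a was 4.79, 5.14 and 4.97 in these 3 tumors, and Mzb1 was 5.79, 6.39 and 5.92, against medians of 4.85 and 5.93 over the 150 tumors. In animal 14606 both genes thus lay below their medians, but its Cd79b value of 7.09 was near the top of the 150 tumors (median 6.40, highest 7.15). Animal 14888 had a Mzb1 value close to the highest of the 150, which was 6.42.

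In a fit on Jchain, also added after the values were seen, 1 of 9 members had a positive slope past the threshold, where 6.37% of all genes did. This was Cd79b, with a slope of 0.07 ± 0.02 (SE, adjusted p = 0.00206), r of 0.325 (permutation p 1.5e-04) and rho of 0.28. Cd22 had a slope of 0.03 ± 0.01 (adjusted p = 0.118), Mzb1 of 0.02 ± 0.01 (adjusted p = 0.488) and Pou2af1 of 0.01 ± 0.05 (adjusted p = 0.94). Of the 14 other plasma cell genes 3 passed, including Irf4 with 0.17 ± 0.03 (adjusted p = 1.94e-05), while Tnfrsf17 had 0.01 ± 0.01 (adjusted p = 0.823), Prdm1 0.06 ± 0.04 (adjusted p = 0.398) and Xbp1 0.02 ± 0.02 (adjusted p = 0.518). Genes of other cells rose with Jchain in greater part. All 9 adipocyte genes, 8 of 10 macrophage genes and 4 of 12 T cell genes had positive slopes past the threshold, with Adipoq at 0.71 ± 0.12 (adjusted p = 1.94e-05). With the mean of the adipocyte list as a covariate 27 genes passed in all and 0 of 9 members (2 at an unadjusted p under 0.05). The part of these cells in the slopes on Jchain was not tested further.

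**Figure D5:**
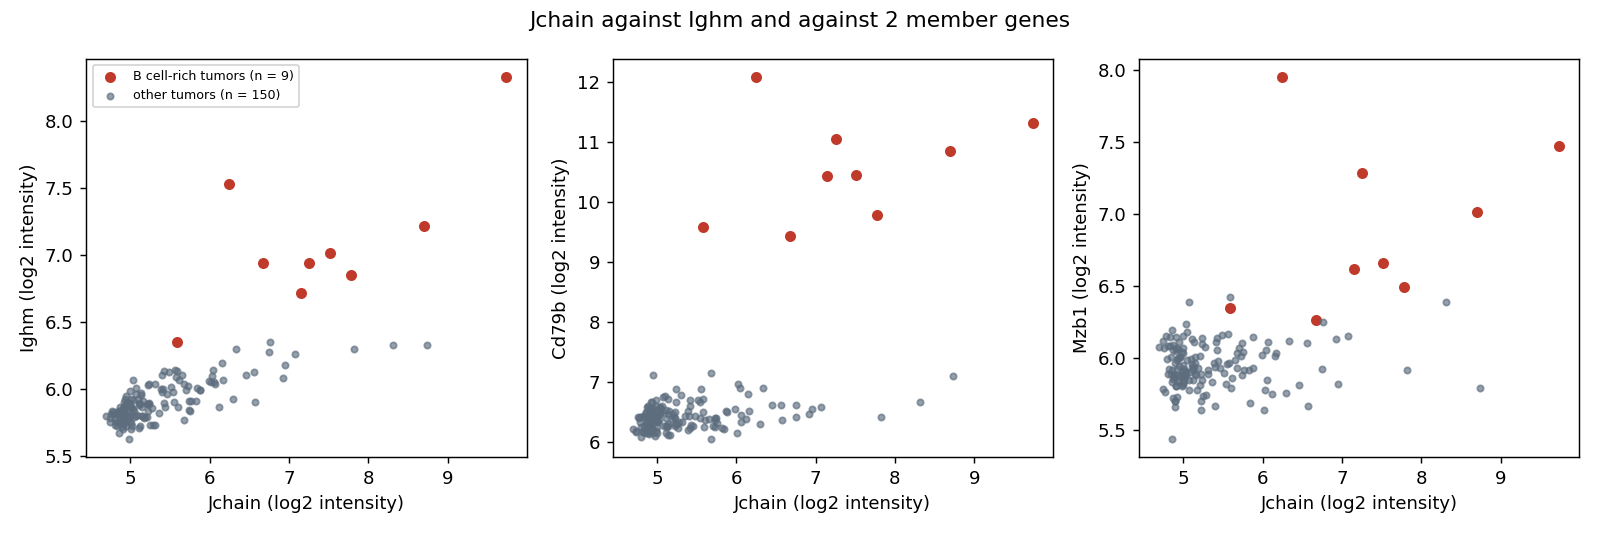
Log2 intensity of Ighm, Cd79b and Mzb1 against Jchain, with the 9 B cell-rich tumors in red and the 150 other tumors in grey. Ighm climbs with Jchain in the other tumors (r = 0.77), Cd79b does so weakly (r = 0.325), and Mzb1 shows r of 0.10.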

How the data were processed

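Total RNA of 159 tumors was measured, 1 array per animal. Per the methods, the authors used BRB ArrayTools, took the median array as the standard for normalisation and applied no correction for batch. They deposited log2 intensities. Methods of background correction and probe summarisation were not given in the sources used here. For the present work a constant was added to every array so that its median difference from a median array became 0. The platform annotation named the probe sets, with 18965 of 20718 carrying 1 symbol, 688 several and 1065 not listed. Each gene was represented by its brightest probe set on average.

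The methods of the study name a log intensity variation filter, and the formula used here was chosen here. Slopes were fitted with limma 3.58.1 (R 4.3.3) over all named genes, with Benjamini-Hochberg adjustment and two-sided tests. Correlations across tumors used 100000 two-sided permutations over 71 pairs of genes, and the adjusted p of a pair is that of its slope. Blocks were runs of 100 animal numbers, 5 with 25 to 37 of the other tumors, and a block of 5 was not used. Tumors were taken as independent, and relatedness among animals was not accounted for. The number of arrays limits the precision.

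The rule named all members, up to 4 genes of each list with the largest SD over all tumors, Jchain, Tnfrsf17, Prdm1, Irf4, Xbp1 and Ighm, the 10 genes of highest r with Cd79a, Mzb1 and Cr2, and the 10 of largest t in each direction of the contrast. Other genes were named after their values were seen. The members and lists were chosen with earlier results of these data known. The variation test and the slope fit on Cd79a were checked on simulated data. Python 3.11.15 was used. Metastasis and survival of the animals were not analysed here.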

Additional observations from a re-analysis of the deposited data

How the results depend on the processing

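The 9 B cell-rich tumors were the same under each alternative tried for them. The variation test kept 9 of 9 members across all tumors except with a robust variance (2 of 9), and 1 of 9, 3 of which made the division, without the B cell-rich tumors except with a robust variance, which added Cd79b (ratio 1.303). With genes above background alone 6 members were tested. No paired analysis was possible because the tumors form 1 group.

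The slopes past the threshold changed in number with the scaling and with the receptor mean as a covariate. The number of genes past the threshold was 9698 for Cd79a in both directions, and 718 after quantile normalization, 392 with the receptor mean as covariate and 1797 over all 159 tumors. For Mzb1 it was 9463, and 1079, 5830 and 2906 in the same order, 5452 with blocks of animal numbers as covariate and 1653 with Jchain in its place. For the difference of Mzb1 and Cd79a slopes it was 236, and 533 as deposited, 0 after quantile normalization, 70 above background, 38 without low-correlation arrays, 98 with blocks, 2 on ranks, 6015 over all tumors, and 2013, 2213 and 9372 with Cd79b, Ms4a1 or Jchain as an anchor. Where limma called 0, 2149 genes had an unadjusted p under 0.05, and no other tool was run. For Pou2af1 it was 2306, and 5406 without the 3 tumors of highest Pou2af1. For Jchain it was 1653, and 27 with the adipocyte mean as covariate. For Cd79b it was 11573, and 7422 with the receptor mean. The median r of the 36 pairs was 0.24, and 0.42 as deposited.

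Some member slopes changed sign, most of them near 0. After quantile normalization Pax5 on Cd79a was -0.00403 and Cd79b on Mzb1 -0.00176. Ms4a1 on Mzb1 was 0.0246 as deposited and 0.841 over all tumors. With Ms4a1 as anchor in place of Cd79a, Pou2af1 was -0.00134 and Mzb1 -0.00279. With Jchain in place of Mzb1, Ms4a1 was 0.00829, Blk -0.0280, Pax5 -0.0180 and Cr2 -0.00403. On Pou2af1, Cr2 was -0.00187 with the receptor mean, and Ms4a1 0.000617 with blocks and 0.0120 without the 3 tumors. On Cd79b, Cr2 was -0.000396 with the receptor mean. In the difference of slopes, Cr2 was -0.0106 as deposited and -0.00729 with blocks, and Blk 0.0201 without low-correlation arrays, 4.47 on ranks and 0.0214 with the receptor mean. Over all 159 tumors Cd22 was -0.311, Pax5 -0.210 and Cr2 -0.690 there. With Cd79b and Mzb1 as anchors Blk was 0.00773 and Cd22 -0.0177. With Ms4a1 and Mzb1 Blk was 0.0290 and Pou2af1 0.0762. With Cd79a and Jchain Cd79b was 0.0138, Pax5 -0.0483 and Cr2 -0.0430. Except where a setting leaves out tumors or genes, the cause was not tested.

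Cd79a, Ms4a1 and Cr2 lay at or below background in all 150 other tumors, so small differences in their RNA were not detectable there.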
